A study of Mus musculus with 8 samples.

Results

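The colony-stimulating factors and their receptors were followed in CD11b+ cells of marrow origin sorted from mouse brain after a stroke model. The set comprised 9 genes, the ligands Csf1, Il34, Csf2 and Csf3 and the receptor genes Csf1r, Csf2ra, Csf2rb, Csf2rb2 and Kit, taken as every gene probe whose name or RefSeq accession belongs to one of them. They are 9 of 47242 distinct names on the array, which include accessions without a gene symbol. They were read by 13 of the 60273 gene probes, and 12 of these 13 probes passed the filter for signal (well above background on 4 or more of the 8 arrays).

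Donor bone marrow labelled with the red fluorescent protein DsRed came from Psgl1-/- or Psgl1+/+ mice and was transplanted into wild-type hosts, so that only the donor cells differed in genotype. Psgl1 (gene symbol Selplg) encodes PSGL-1, a leukocyte glycoprotein that binds selectins. All hosts underwent a 30 min occlusion of the middle cerebral artery (MCAo), and brain tissue was taken 7 days later. Live DsRed+ CD11b+ cells with high CD45 and without Ly6G (found on neutrophils) or CD3 (found on T cells) were sorted, and their RNA went onto single-colour arrays, 4 labelled Psgl1-/- (replicates 5 to 8) and 4 labelled Psgl1+/+ (replicates 1 to 4). The labels give neither the age of the animals nor how many contributed to a sample, so the p-values rest on the spread between samples, and part or all of that spread may be technical. In sorted cells studied in bulk, fewer cells of a type and less RNA per cell cannot be told apart.

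Colony-stimulating factors are cytokines that keep myeloid cells alive and drive their division and maturation. M-CSF (encoded by Csf1) and IL-34 share the receptor tyrosine kinase CSF1R, on which macrophages and microglia depend. GM-CSF (Csf2) binds a specific alpha chain (Csf2ra) that signals through a beta chain (Csf2rb), which IL-3 and IL-5 receptors also use; mice carry in addition a close copy, Csf2rb2, whose product serves the IL-3 receptor. G-CSF (Csf3) acts on neutrophils and their precursors, and KIT, a kinase related to CSF1R, is the receptor for stem cell factor and marks mast cells and blood progenitors.

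None of the 9 genes differed between the arrays labelled Psgl1-/- and those labelled Psgl1+/+ past the adjusted threshold of 0.05 (limma, Benjamini-Hochberg over 42312 tested genes), at which 0.00236% of all tested genes were called, and 2 of the 9 had an unadjusted p under 0.05, as did 10.8% of all tested genes. Csf2rb2 signal was higher on every Psgl1-/- array than on any Psgl1+/+ array, by 2.40 on the log2 scale. Groups without overlap in that direction were found for 0.65% of all tested genes. Il34 signal was lower on every Psgl1-/- array, by 1.03 on the log2 scale, and 10.8% of all tested genes had lower groups without overlap. Csf2rb and Kit had positive differences of 3.06 and 2.42 by the probe that stands for each gene, with large spread between arrays and with another probe of each gene below 0 (-0.52 for Csf2rb and -0.11 for Kit). Of these, the Kit probe at 2.42 and the Csf2rb probe at -0.52 carry the gene name but list no RefSeq transcript of the gene. The Kit probe at 2.42 was the brightest of its gene only through the Psgl1-/- arrays. Csf1r, Csf1, Csf2, Csf2ra and Csf3 differed by 0.77 or less in either direction.

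Signals below are log2 values of the processed intensity after each array was scaled to its 75th percentile, and differences are Psgl1-/- minus Psgl1+/+. Before scaling, that percentile was 833.3 to 958.8 on the Psgl1-/- arrays and 525.8 to 748.6 on the Psgl1+/+ arrays, so the groups did not overlap in it. After scaling the median difference over all tested genes was -0.33, and 68.9% of genes had a negative difference. A difference near -0.33 is therefore that of the median gene. All arrays lay on 1 slide, where row 1 and row 2 each held 2 arrays of each genotype, whereas slide column and genotype cannot be told apart. The share of spots well above background was 87.6% and 88.2% on the Psgl1-/- arrays of row 1 and 76.2% and 81.2% on those of row 2, against 86.2% and 86.8% on the Psgl1+/+ arrays of row 1 and 76.1% and 81.6% on those of row 2. Selplg itself had 13.25, 13.45, 13.16 and 12.88 on Psgl1-/- replicates 5 to 8, against 13.79, 12.68, 13.05 and 15.74 on Psgl1+/+ replicates 1 to 4. Which exons the Psgl1-/- donors lack was not stated in the labels, so this probe does not check the genotype. The sort markers Itgam (CD11b; 12.23 to 14.34 on Psgl1-/- and 13.11 to 14.18 on Psgl1+/+ arrays) and Ptprc (CD45; 8.88 to 13.04 and 8.65 to 13.89, in the same order) and the macrophage marker Adgre1 (7.13 to 10.78 and 8.05 to 8.83) were well above background on all 8 arrays. Ly6g, whose protein the sort selected against, was well above background on 4 Psgl1-/- arrays (6.54 to 10.92) and on 3 of 4 Psgl1+/+ arrays (2.30 to 8.59 over all 4). Cd3e was well above background on all 8, at 5.48 to 6.42 on the Psgl1-/- arrays and 6.25 to 12.04 on the Psgl1+/+ arrays.

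**Figure D1:**
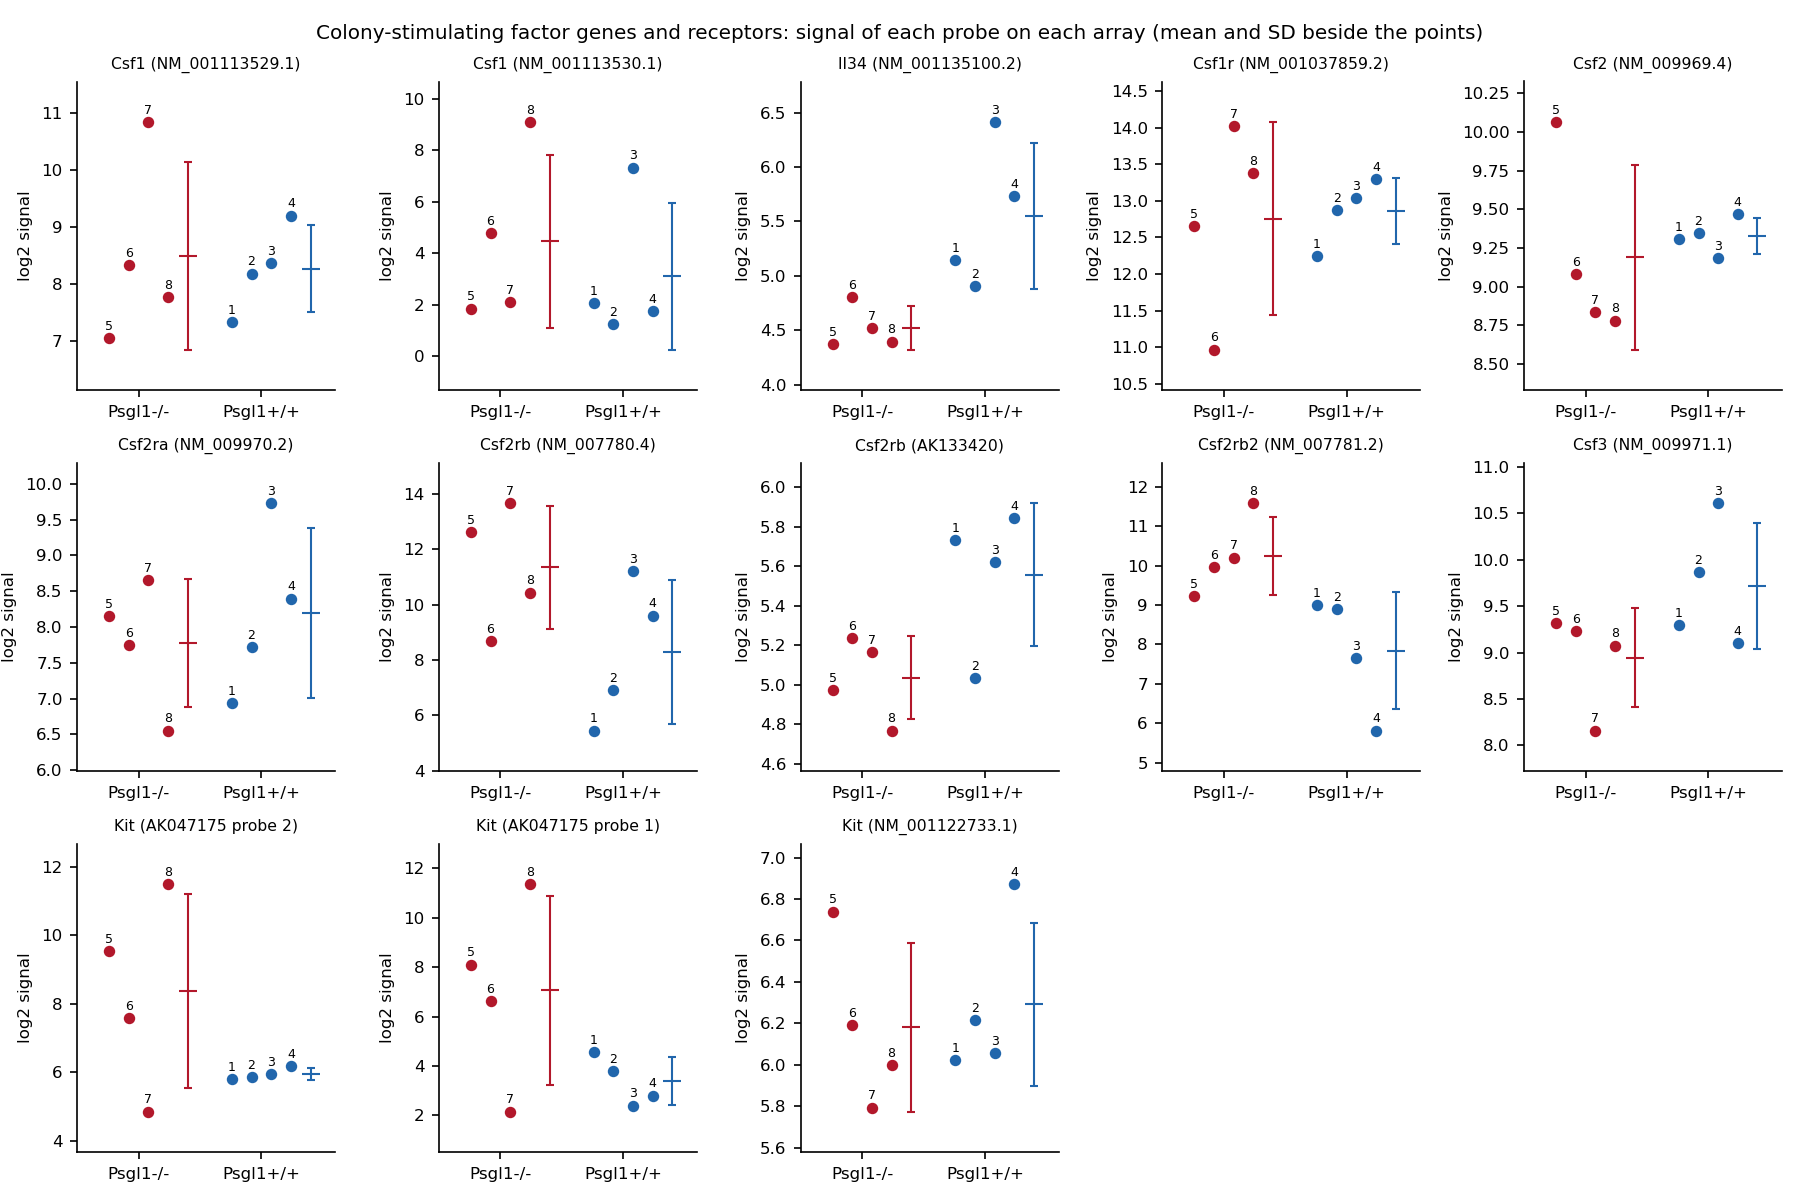
Log2 signal (vertical axes, 1 scale per panel) of the 13 probes of the colony-stimulating factors and receptors on the 4 Psgl1-/- arrays (red) and the 4 Psgl1+/+ arrays (blue). Numbers are replicates, and the bar beside the points is the mean with 1 SD. The groups do not overlap for Csf2rb2 (higher, as for 0.65% of all tested genes) and Il34 (lower, as for 10.8%).

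Among the ligands, Csf1 had 7.05, 8.33, 10.83 and 7.76 on Psgl1-/- replicates 5 to 8, against 7.33, 8.18, 8.37 and 9.20 on Psgl1+/+ replicates 1 to 4. The groups overlapped, with the highest and the lowest array both labelled Psgl1-/-. The difference was 0.23 (SE 0.83, 95% interval -1.70 to 2.15, limma adjusted p = 0.92), and it was -0.55 without Psgl1-/- replicate 7. A second probe, filed under the transcript NM_001113530.1, was well above background on 3 arrays, Psgl1-/- replicates 6 and 8 (4.79 and 9.09) and Psgl1+/+ replicate 3 (7.34). On the other 5 arrays it lay between 1.25 and 2.11, so this probe gave signal on 2 of 4 Psgl1-/- arrays and 1 of 4 Psgl1+/+ arrays and was not tested.

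Il34, the second ligand of CSF1R, which neurons produce in the healthy brain, was read by 1 dim probe, the first 30 bases of which are shown because the lower group in this set rests on it.
Il34 probe: cgaggaccaaccaaatgccgtatcttgcca
Il34 had 4.37, 4.81, 4.52 and 4.39 on Psgl1-/- replicates 5 to 8, against 5.15, 4.90, 6.41 and 5.73 on Psgl1+/+ replicates 1 to 4. All 4 Psgl1-/- arrays lay below all 4 Psgl1+/+ arrays, by a margin of less than 0.1 between Psgl1-/- replicate 6 and Psgl1+/+ replicate 2. The means were 4.52 ± 0.20 on the Psgl1-/- arrays and 5.55 ± 0.67 on the Psgl1+/+ arrays (SD, n = 4 each). The difference was -1.03 (SE 0.37, 95% interval -1.88 to -0.17, limma adjusted p = 0.459). Relative to the median gene it was -0.70, with a 95% interval of -1.56 to 0.16 that includes 0. Groups without overlap in this direction were found for 10.8% of all tested genes. The signal on Psgl1-/- replicate 7 was not well above background. With normexp background correction, an added offset of 50 and quantile normalization, the difference was -0.28 (limma adjusted p = 0.76). With quantile normalization alone it was -0.74 (limma adjusted p = 0.708).
Of 6 neuronal markers, all well above background on every array, 5 had a negative difference, as did 68.9% of all tested genes, and Tubb3, a neuronal tubulin, had a difference of 1.01. Their mean signal was 10.59 to 11.76 on the Psgl1-/- arrays and 10.90 to 12.15 on the Psgl1+/+ arrays. Snap25, a synaptic vesicle fusion protein, was lower on all 4 Psgl1-/- arrays (15.67 to 15.99, against 16.15 to 16.85 on the Psgl1+/+ arrays; difference -0.57, or -0.25 relative to the median gene, limma adjusted p = 0.459). The part of neuronal RNA in the Il34 signal was not tested.

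Csf2, which encodes GM-CSF, had 10.06, 9.08, 8.84 and 8.78 on Psgl1-/- replicates 5 to 8, against 9.31, 9.35, 9.18 and 9.47 on Psgl1+/+ replicates 1 to 4. The Psgl1+/+ arrays lay within 0.28 of each other, and the Psgl1-/- arrays stood on both sides of them. The difference of -0.14 (SE 0.33, 95% interval -0.91 to 0.64, limma adjusted p = 0.875) changed sign to 0.015 after scaling to the array median and to 0.11 after cyclic loess. T and NK cells are known sources of GM-CSF, although the sort kept CD11b+ cells without CD3. Of 10 markers of these cells 8 had a negative difference, as did 68.9% of all tested genes, and none was past the adjusted threshold (lowest adjusted p = 0.471 with limma, 0 with an unadjusted p under 0.05). Their mean signal was 6.43 to 7.34 on the Psgl1-/- arrays and 7.10 to 7.47 on the Psgl1+/+ arrays, and their part in the Csf2 values was not tested.

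Csf3, which encodes G-CSF, had 9.32, 9.23, 8.16 and 9.07 on Psgl1-/- replicates 5 to 8, against 9.30, 9.87, 10.61 and 9.10 on Psgl1+/+ replicates 1 to 4. The groups overlapped between 9.10 and 9.32, while Psgl1-/- replicate 7 was the lowest array and Psgl1+/+ replicate 3 the highest. The difference of -0.77 (SE 0.43, 95% interval -1.77 to 0.23, limma adjusted p = 0.488) was -0.45 relative to the median gene. It was negative under each of the 17 alternatives tested, at -0.98 to -0.48.

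Csf1r, the receptor of both M-CSF and IL-34, had 12.66, 10.97, 14.02 and 13.37 on Psgl1-/- replicates 5 to 8, against 12.24, 12.87, 13.04 and 13.30 on Psgl1+/+ replicates 1 to 4. The Psgl1+/+ arrays all lay inside the range of the Psgl1-/- arrays, which spanned 3.05 against 1.05. The means of 12.75 ± 1.32 and 12.86 ± 0.45 (SD, n = 4 each) gave a difference of -0.11 (SE 0.65, 95% interval -1.61 to 1.40, limma adjusted p = 0.953), whose sign depended on the scaling (0.046 to 0.22 under the other scalings) and on Psgl1-/- replicate 6 (0.49 without it). Within slide row 1 the difference was -0.91 and within slide row 2 it was 0.70.
A second probe, filed under the predicted transcript XM_006525587.1 and listing the Csf1r RefSeq transcript among its targets, had 11.16, 10.77, 12.79 and 11.66 on the Psgl1-/- arrays and 11.54, 11.66, 10.60 and 11.24 on the Psgl1+/+ arrays. Psgl1-/- replicate 7 was the highest array by both Csf1r probes and Psgl1-/- replicate 6 the lowest of its group by both, whereas Psgl1+/+ replicate 3 was second highest of its group by one and lowest by the other. The second probe gave a difference of 0.33 (SE 0.49, 95% interval -0.80 to 1.46, limma adjusted p = 0.784 over all probes).
Among 8 markers of microglia, cells that also depend on CSF1R signalling, 5 had a positive and 3 a negative difference, against 31.1% positive over all tested genes. Their mean signal was 10.88 to 12.17 on the Psgl1-/- arrays and 9.98 to 12.36 on the Psgl1+/+ arrays.

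Csf2ra, the alpha chain that binds GM-CSF, had 8.15, 7.75, 8.65 and 6.55 on Psgl1-/- replicates 5 to 8, against 6.94, 7.72, 9.73 and 8.39 on Psgl1+/+ replicates 1 to 4. The groups overlapped over most of their ranges. The difference was -0.42 (SE 0.68, 95% interval -2.01 to 1.17, limma adjusted p = 0.807), and it was 0.093 without Psgl1+/+ replicate 3. A second probe, filed under XM_006526634.1 and listing the Csf2ra transcript, varied less between arrays, at 11.63, 12.04, 11.89 and 11.28 on the Psgl1-/- arrays and 11.39, 11.54, 11.62 and 12.03 on the Psgl1+/+ arrays. Its difference was 0.067 (SE 0.28, 95% interval -0.58 to 0.72, limma adjusted p = 0.931 over all probes).

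**Figure D2:**
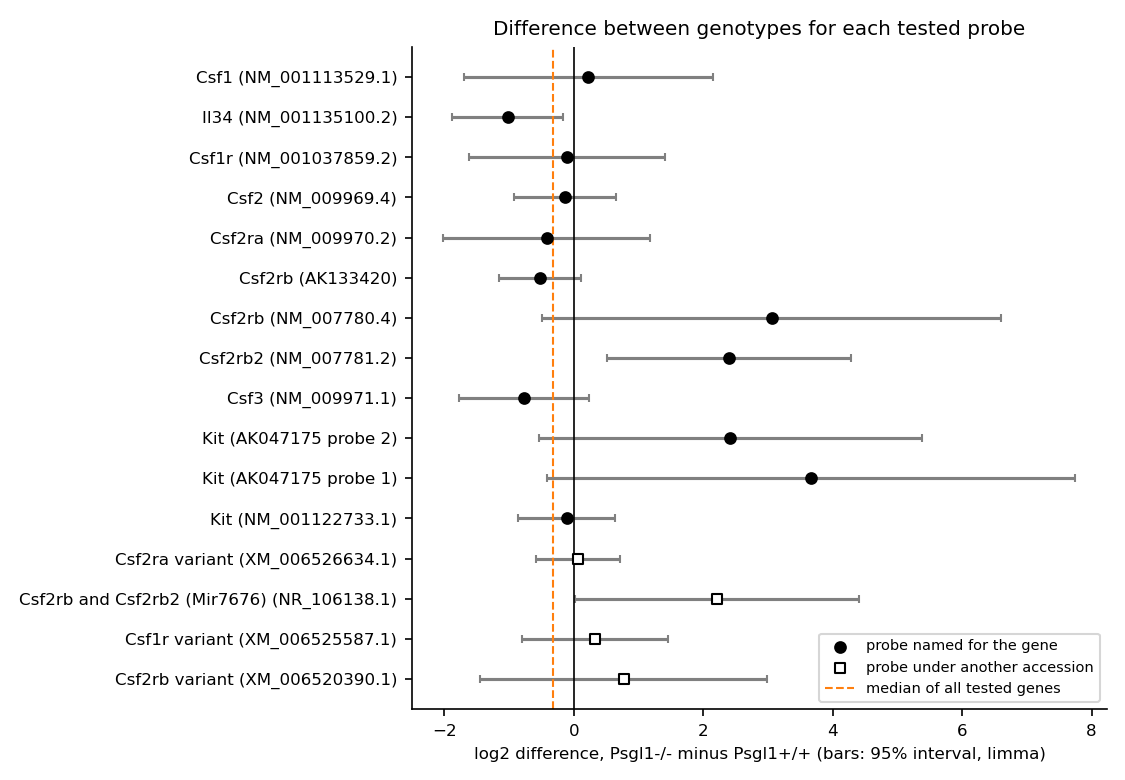
Log2 difference between Psgl1-/- and Psgl1+/+ arrays (horizontal axis) for the 12 tested probes named for the genes (filled circles) and 4 probes filed under another accession that list a transcript of the genes (open squares), with 95% intervals from limma. The dashed line marks the median of all tested genes, -0.33. Among the probes well above background on at least 3 arrays of each genotype, the intervals of Csf2rb2 and Il34 do not reach 0. That of Il34 includes the dashed line, whereas that of Csf2rb2 does not. The Mir7676 probe and Kit cDNA probe 1 were well above background on 1 and 2 of 4 Psgl1+/+ arrays, so their bars rest on values at background.

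The genes of the beta chains, Csf2rb and Csf2rb2, are neighbours on chromosome 15, with no other gene of the RefSeq table between them. Their probes resemble each other, and the stretch that both share is shown so that a reader can judge how far the probes tell the genes apart. Over 27 bases, 24 are identical, and capitals mark the 3 that differ.
Csf2rb probe, bases 30 to 56 of 56: ggcagatcaaAtgtCccttggtctCtg
Csf2rb2 probe, bases 11 to 37 of 50: ggcagatcaaGtgtTccttggtctAtg
Another probe, filed under the microRNA gene Mir7676-2, reads both genes. All of its 48 bases lie within a hairpin that RefSeq (GRCm38.p6) places in 2 identical copies, Mir7676-1 inside Csf2rb2 and Mir7676-2 inside Csf2rb, and the probe lists the transcripts of both beta chains.
Mir7676 probe: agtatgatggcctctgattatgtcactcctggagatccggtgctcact

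Csf2rb2 had 9.23, 9.97, 10.20 and 11.58 on Psgl1-/- replicates 5 to 8, against 9.0, 8.90, 7.66 and 5.82 on Psgl1+/+ replicates 1 to 4. All 4 Psgl1-/- arrays lay above all 4 Psgl1+/+ arrays, although Psgl1-/- replicate 5 (9.23) and Psgl1+/+ replicate 1 (9.0) lay close together. The means were 10.24 ± 0.98 on the Psgl1-/- arrays and 7.84 ± 1.48 on the Psgl1+/+ arrays (SD, n = 4 each). The difference was 2.40, or 5.27-fold (SE 0.81, 95% interval 0.51 to 4.28, limma adjusted p = 0.459). Relative to the median gene the difference was 2.72. Groups without overlap and higher on the Psgl1-/- arrays were found for 0.65% of all tested genes, and an unadjusted p under 0.05 in this direction for 1.63%. Within slide row 1 the difference was 3.41 and within slide row 2 it was 1.38.

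Csf2rb had 12.61, 8.68, 13.65 and 10.43 on Psgl1-/- replicates 5 to 8, against 5.45, 6.90, 11.20 and 9.60 on Psgl1+/+ replicates 1 to 4. Psgl1-/- replicates 5 and 7 were the highest arrays, and the groups overlapped between 8.68 and 11.20. The difference was 3.06, or 8.31-fold (SE 1.52, 95% interval -0.49 to 6.60, limma adjusted p = 0.471). The spread was wide within both genotypes, with an SD of 2.23 on the Psgl1-/- arrays and 2.59 on the Psgl1+/+ arrays, and 90.4% of all tested genes varied less within their groups. The order of arrays was not that of Csf2rb2, which was lowest on Psgl1-/- replicate 5 among the Psgl1-/- arrays. Within slide row 1 the difference was 1.30 and within slide row 2 it was 4.81.

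The Mir7676 probe had 7.00, 3.45, 7.34 and 4.60 on Psgl1-/- replicates 5 to 8, against 2.81, 3.79, 2.50 and 4.45 on Psgl1+/+ replicates 1 to 4. Psgl1-/- replicates 5 and 7 were again the highest arrays, as for Csf2rb, and the probe was well above background on all 4 Psgl1-/- arrays but on only 1 of 4 Psgl1+/+ arrays. It passed the filter through the Psgl1-/- arrays, and since the other 3 Psgl1+/+ values are at background, no difference is given.
Another 2 probes of Csf2rb did not follow this pattern. The one filed under XM_006520390.1 had 9.14, 8.86, 12.87 and 8.30 on Psgl1-/- replicates 5 to 8 and 8.88, 8.86, 9.48 and 8.87 on Psgl1+/+ replicates 1 to 4. Psgl1-/- replicate 7 was the highest array by this probe and Psgl1+/+ replicate 3 the next, and the difference was 0.77 (SE 0.95, 95% interval -1.45 to 2.98, limma adjusted p = 0.745). The dim cDNA probe AK133420 (chr15:78184049-78184108, build mm9) had 4.97, 5.23, 5.16 and 4.77 on the Psgl1-/- arrays and 5.73, 5.03, 5.62 and 5.84 on the Psgl1+/+ arrays. This probe carries the gene name but lists no Csf2rb RefSeq transcript. Its difference was -0.52 (SE 0.27, 95% interval -1.16 to 0.12, limma adjusted p = 0.493), of the opposite sign to that of the Csf2rb RefSeq probe. Averaged over the probes named for the gene, the Csf2rb difference was 1.27 (adjusted p = 0.539).

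**Figure D3:**
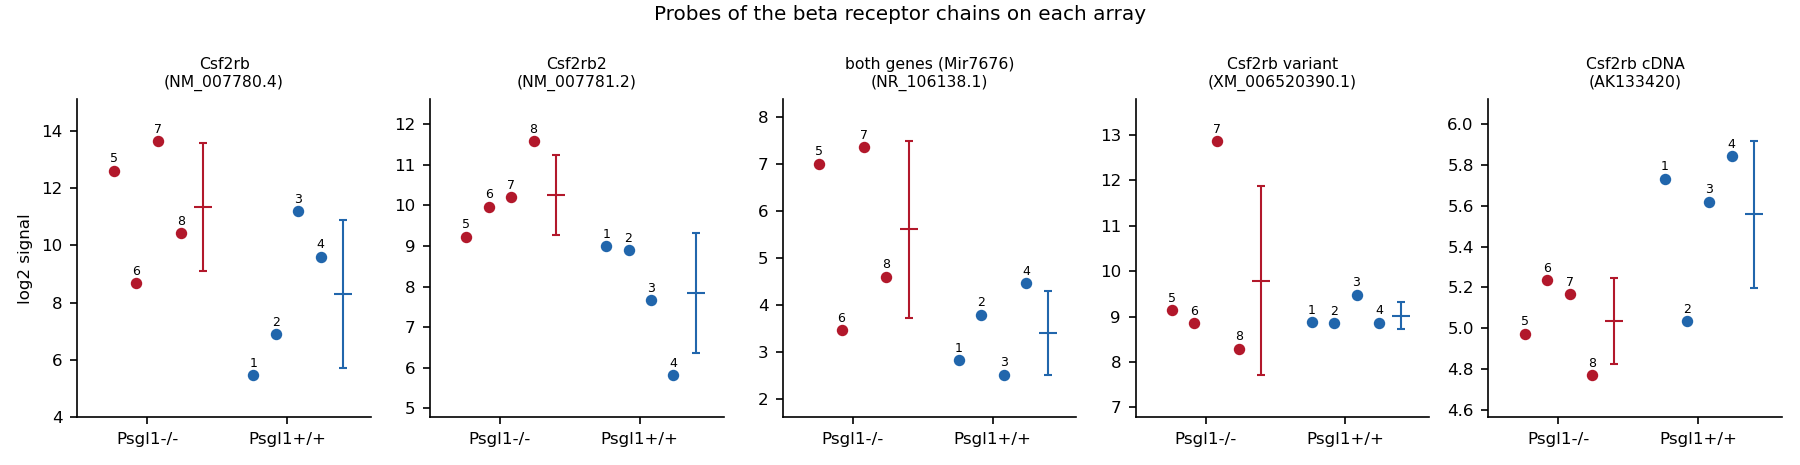
Log2 signal (vertical axes, 1 scale per panel) of 5 probes of the beta chain genes on the Psgl1-/- arrays (red, left) and the Psgl1+/+ arrays (blue, right), numbered by replicate, with mean and SD beside the points. Psgl1-/- replicates 5 and 7 are highest by the Csf2rb and Mir7676 probes, replicate 8 by the Csf2rb2 probe, and by the cDNA probe 3 of 4 Psgl1+/+ arrays are above all Psgl1-/- arrays.

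Markers of neutrophils, which carry beta chain receptors, were set beside these values although the sort excluded Ly6G+ cells. Of 10 such markers, 6 had a positive and 4 a negative difference, against 31.1% positive over all tested genes. Their mean signal was 7.83 to 8.96 on the Psgl1-/- arrays and 6.60 to 8.31 on the Psgl1+/+ arrays. S100a9, an abundant neutrophil and monocyte protein, was higher on all 4 Psgl1-/- arrays (11.61 to 12.97, against 4.49 to 11.42 on the Psgl1+/+ arrays). Its difference was 4.79 (limma adjusted p = 0.459). Among the 10 markers it alone had groups without overlap, as did 0.65% of all tested genes in this direction. S100a8 overlapped between the groups (8.14 to 10.37 on Psgl1-/- and 6.28 to 11.38 on Psgl1+/+ arrays, difference 0.59). The part of neutrophil RNA in the beta chain signals was not tested.

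Kit was read by 3 probes that gave different pictures. A pair of them lie next to each other on the cDNA AK047175, at chr5:76048202-76048261 and chr5:76048262-76048321 (build mm9). These carry the gene name but list no Kit RefSeq transcript, whereas the third targets the RefSeq transcripts. The first 30 bases of each probe are shown because the result for Kit depends on which is read.
Kit cDNA probe 1: tgccactgcataaaatttagatcttagcag
Kit cDNA probe 2: caaagcagtctgggaaatgtagttatagtt
Kit RefSeq probe: cattggaatcaaggcctcctccctagtcag
Kit cDNA probe 2, which had the highest mean of the 3 and stands for Kit in the test across genes, had 9.55, 7.58, 4.86 and 11.49 on Psgl1-/- replicates 5 to 8, against 5.80, 5.86, 5.96 and 6.19 on Psgl1+/+ replicates 1 to 4. Its mean was above that of the RefSeq probe on the Psgl1-/- arrays (8.37 against 6.18). On the Psgl1+/+ arrays it was below (5.95 against 6.29). The choice of this probe therefore rests on the same Psgl1-/- values that make its difference. Kit cDNA probe 1 had 8.09, 6.63, 2.16 and 11.34 on the Psgl1-/- arrays and 4.56, 3.79, 2.40 and 2.79 on the Psgl1+/+ arrays. By both cDNA probes, Psgl1-/- replicates 5, 6 and 8 were above every Psgl1+/+ array. Psgl1-/- replicate 7 was below every Psgl1+/+ array by cDNA probe 2, measured above background on each of the 8 arrays, whereas cDNA probe 1 was not well above background on that array or on Psgl1+/+ replicates 3 and 4. The difference of cDNA probe 2 was 2.42 (SE 1.27, 95% interval -0.54 to 5.37, limma adjusted p = 0.479), and none is given for cDNA probe 1, since only 2 of 4 Psgl1+/+ arrays measured it.
The Kit RefSeq probe had 6.74, 6.19, 5.79 and 6.0 on the Psgl1-/- arrays and 6.02, 6.22, 6.06 and 6.87 on the Psgl1+/+ arrays. The arrays that were high by the cDNA probes did not stand apart by this probe, and the difference was -0.11 (SE 0.32, 95% interval -0.86 to 0.64, limma adjusted p = 0.898 over all probes). Without Psgl1-/- replicate 8 the difference of Kit cDNA probe 2 was 1.38, and without Psgl1-/- replicate 7 it was 3.59.
Markers of mast cells and basophils, which carry KIT or arise from cells that do, were set beside these values. All 8 tested markers had a negative difference, as did 68.9% of all tested genes, and none was past the adjusted threshold (0 with an unadjusted p under 0.05 by limma). The mean over the 9 on the array was 7.22 to 8.40 on the Psgl1-/- arrays and 8.45 to 9.73 on the Psgl1+/+ arrays. Fcer1a, the alpha chain of the high-affinity IgE receptor, was well above background on 1 of 8 arrays. Cpa3, the mast cell carboxypeptidase, was at 3.56 to 4.24 on the Psgl1-/- arrays, at 4.54 and 4.50 on Psgl1+/+ replicates 1 and 3, and at 11.33 and 11.60 on Psgl1+/+ replicates 2 and 4. Mcpt8 was at 14.17 on Psgl1+/+ replicate 4, at 6.83 to 7.37 on the other Psgl1+/+ arrays and at 5.82 to 10.33 on the Psgl1-/- arrays. The part of mast cells and basophils in the Kit values was not tested.

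Counts over the 9 genes were set beside all tested genes. The 9 genes had 4 positive and 5 negative differences, with a median of -0.11, against 31.1% positive and a median of -0.33 over all tested genes. Kit counts as positive by cDNA probe 2, chosen through its Psgl1-/- values, whereas its RefSeq probe had a negative difference. Groups without overlap were found for 1 gene that was higher (Csf2rb2) and 1 that was lower (Il34), against 0.65% and 10.8% of all genes.

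**Figure D4:**
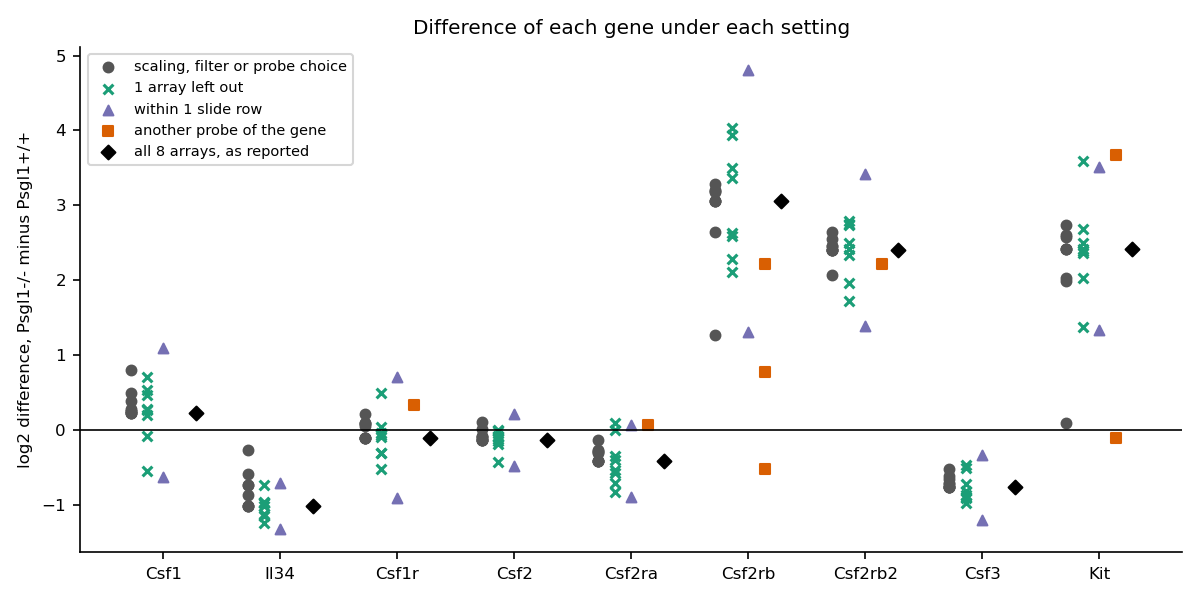
Log2 difference between Psgl1-/- and Psgl1+/+ (vertical axis) of each of the 9 genes under each setting: other scalings, filters and probe choices (circles), 1 array left out (crosses), within 1 slide row (triangles), another probe (squares) and all 8 arrays as reported (diamonds). Csf2rb, Csf2rb2 and Kit spread most. Csf2rb2 stays above 0, Il34 and Csf3 stay below 0, and Csf1, Csf1r, Csf2 and Csf2ra lie on both sides of 0. Csf2rb and Kit are above 0 except by another probe (-0.52 and -0.11). These signs do not count the squares of the Mir7676 probe (drawn for Csf2rb and Csf2rb2) and of Kit cDNA probe 1. Their positions rest on Psgl1+/+ values at background.

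Genes that work with these factors were described from 4 lists of 62 genes in all, of which 60 were tested. None passed the adjusted threshold, at which 0.00236% of all tested genes were called. By limma 1 had an unadjusted p under 0.05 and was higher, and 4 were lower, against 1.63% and 9.18% of all tested genes. The median difference was -0.04, against -0.33 over all tested genes, of which 31.1% had a positive difference.

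Among related cytokines and receptors, 2 of 9 tested genes had a positive and 7 a negative difference (median -0.40). The positive ones were Il3ra and Kitl, and the sign for Kitl rests on Psgl1+/+ values mostly at background. Il3, a cytokine that signals through both beta chains, was at 8.54 ± 0.53 on the Psgl1-/- arrays and 9.36 ± 0.17 on the Psgl1+/+ arrays (SD, n = 4 each; difference -0.82, limma adjusted p = 0.459). The alpha chain of its receptor, Il3ra, had 10.92, 9.94, 10.60 and 10.23 on Psgl1-/- replicates 5 to 8, against 8.38, 8.31, 8.56 and 10.96 on Psgl1+/+ replicates 1 to 4, so that the groups overlapped through Psgl1+/+ replicate 4 (difference 1.37, SE 0.63, limma adjusted p = 0.46). Ptprz1, a phosphatase that IL-34 also binds, differed by -0.95 (SE 0.42, limma adjusted p = 0.459). Csf3r, the G-CSF receptor, was bright and narrow, at 14.97 to 15.17 on the Psgl1-/- arrays and 15.28 to 15.95 on the Psgl1+/+ arrays, without overlap, and the difference of -0.40 (limma adjusted p = 0.514) was near the median of all genes. Kitl, which encodes stem cell factor, had 5.24, 6.30, 6.38 and 9.43 on the Psgl1-/- arrays and 8.56, 1.72, 2.45 and 2.61 on the Psgl1+/+ arrays. It was well above background on all 4 Psgl1-/- arrays and on 1 Psgl1+/+ array, which was the second highest of all; since it passed the filter through the Psgl1-/- arrays, no difference is given.

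Of 30 tested genes of signalling below the receptors, 13 had a positive and 17 a negative difference (median -0.25). Socs1, an inhibitor of JAK kinases that cytokines induce, had 10.24, 11.22, 9.37 and 9.36 on Psgl1-/- replicates 5 to 8, against 12.25, 11.68, 11.11 and 11.86 on Psgl1+/+ replicates 1 to 4, with a difference of -1.68 (SE 0.49, limma adjusted p = 0.459). The adaptor Grb2, which links CSF1R and KIT to Ras, differed by 1.32 (SE 0.43) and the kinase Akt1 by -0.73 (SE 0.31), both with a limma adjusted p of 0.459.

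Transcription factors that act on the Csf1r gene in macrophages had 8 positive and 2 negative differences among 10 tested genes (median 0.89). None of the positive differences had an unadjusted p under 0.05 by limma. Ets2 had 6.0, 5.58, 5.36 and 5.95 on Psgl1-/- replicates 5 to 8, against 6.09, 8.01, 9.22 and 10.86 on Psgl1+/+ replicates 1 to 4. The Psgl1-/- arrays were all lower, by a narrow margin to Psgl1+/+ replicate 1 (difference -2.83, SE 0.92, limma adjusted p = 0.459). Lower groups without overlap were found for 10.8% of all tested genes. Fos differed by 2.95 (SE 1.28, limma adjusted p = 0.459) and Cebpa, a factor of granulocyte and monocyte development, by 2.21 (SE 1.74, limma adjusted p = 0.593). Genes that GM-CSF induces had 5 positive and 6 negative differences among 11 tested genes (median -0.05). Zbtb46, a dendritic cell factor, differed by -2.19 (SE 0.99), and the chemokine genes Ccl22 and Ccl17 by -0.50 (SE 0.24) and -0.43 (SE 0.40), with limma adjusted p-values of 0.459, 0.466 and 0.65.

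**Figure D5:**
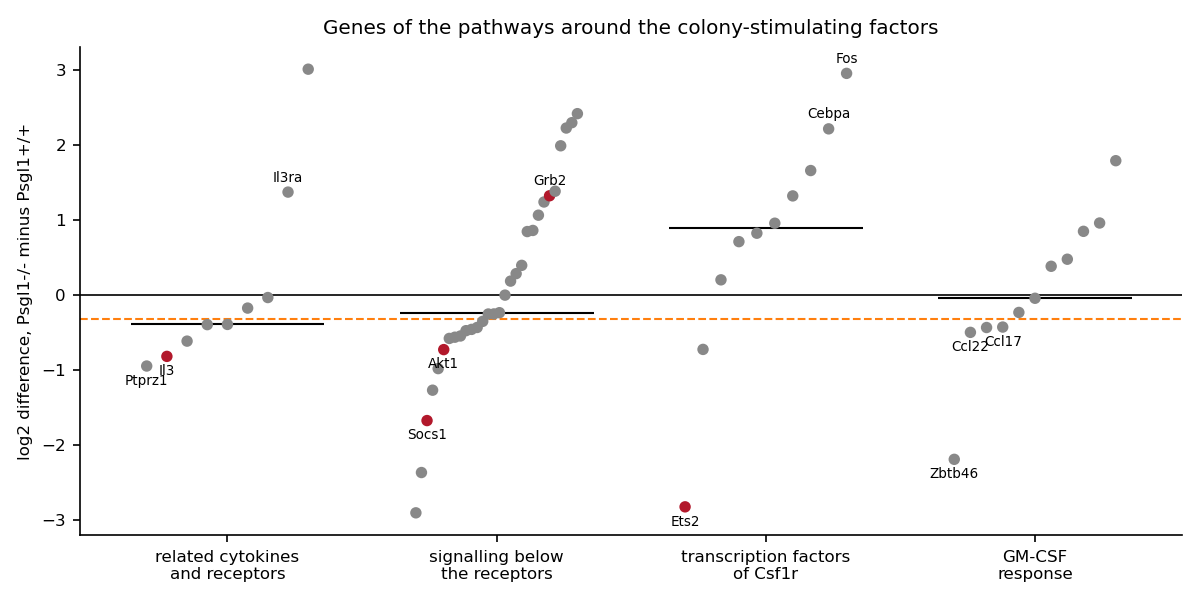
Log2 difference between Psgl1-/- and Psgl1+/+ (vertical axis) of the 60 tested genes in the 4 lists around the colony-stimulating factors. Each point is a gene, red points have an unadjusted p under 0.05, black bars are list medians, the dashed line is the median of all tested genes, and the 3 genes with the smallest p of each list are named. Kitl, well above background on 1 of 4 Psgl1+/+ arrays, is among the unnamed points, and its position rests on values at background.

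The tested genes whose signal followed each of 3 receptor genes most closely across the 8 arrays were listed as a description. They were found among 25656 genes with a symbol, and all points share 1 slide and 1 scaling. The signal of Csf1r was followed most closely by Pcbp2, Anapc4 and Olfr743 (Pearson r = 0.96, 0.95 and 0.95 over 8 arrays), and 24 genes exceeded 0.9. Pcbp2, a protein that binds poly(C) stretches of RNA, had 9.87, 6.0, 13.64 and 11.32 on Psgl1-/- replicates 5 to 8 and 8.04, 12.01, 10.70 and 12.24 on Psgl1+/+ replicates 1 to 4, so that Psgl1-/- replicates 7 and 6 mark its highest and lowest values as they do for Csf1r. Csf2ra was followed by the clock gene Per2, Mir7689 and Vcpip1 (r = 0.96, 0.95 and 0.95), with 14 genes above 0.9. Csf2rb was followed by Mx1, an antiviral GTPase induced by interferon, Gm21136 and the calpain gene Capn1 (r = 0.96, 0.95 and 0.95), with 19 genes above 0.9. Mx1 had 11.81, 6.35, 11.45 and 9.20 on the Psgl1-/- arrays and 2.04, 1.22, 9.95 and 7.34 on the Psgl1+/+ arrays. Its values on Psgl1+/+ replicates 1 and 2 were close to those of the endothelial marker Cdh5 (2.02 and 1.22), which was not well above background on any Psgl1+/+ array. The r of Mx1 with Csf2rb therefore rests partly on values near background.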

How the data were processed

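RNA of 8 sorted samples was read on 8 single-colour Agilent arrays. RNA was amplified with random primers and labelled with cyanine 3, per the labels' protocols. Per the file headers, the deposited values are linear intensities from Agilent Feature Extraction (version 11.5.1.1), corrected for background and spatial trends within an array but not between arrays, on build mm9. The authors' deposited series matrix also holds intensities, on a linear scale. Its 59448 rows are not named by probe, and 58662 of them matched a single probe. Its sorted columns are identical (median 132.9), and the lowest correlation of a column with the array of the same sample was 0.998. It served as an alternative only.

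Control spots (1439) and outlier spots (25 to 149 per array) were left out, and no spot was saturated. Of 60273 probes, 186 lacked a value on some array and were dropped. Probes were named through RefSeq accession or symbol (GRCm38.p6; 67.1% of probes). From log2 intensities the array's own 75th percentile was subtracted. For each gene the probe with the highest mean was kept if 4 or more of the 8 arrays had it well above background, and 42312 genes were tested with limma 3.58.1 in R 4.3.3 (lmFit, eBayes, Benjamini-Hochberg, two-sided threshold 0.05). Of these, 25657 had a symbol, and every other name or accession was counted as a gene of its own. The fit was repeated over all probes, and checked on simulated data. The number of arrays limits precision. Python 3.11.15, numpy 2.4.6, pandas 2.3.3, data.table (version 1.17.8) and matplotlib 3.10.9 were used.

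The members, lists and tests were chosen with earlier results of these data known. Named were all members, the 3 list genes with the smallest p per list, Csf3r, Kitl, and the 3 genes most like each of Csf1r, Csf2ra and Csf2rb. Markers were named where they stand beside a result, with Tubb3, S100a8, Mcpt8 and Cdh5 added after their values were seen. The 4 probes under other accessions were added after seeing the data. Probe sequences are from the deposited files, hairpin positions from RefSeq.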

Additional observations from a re-analysis of the deposited data

Results flagged for a closer look

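Among the values of the 17 probes described, an array far from the other 3 of its group was found in 2 of 34 groups of 4 arrays, and chance alone gives about 1 in 20. The Csf1 probe for NM_001113530.1 was at 7.34 on Psgl1+/+ replicate 3, against 2.07 or less on the other Psgl1+/+ arrays. The Csf2rb probe filed under XM_006520390.1 was at 9.48 on Psgl1+/+ replicate 3, against 8.88 or less on the other Psgl1+/+ arrays, while Psgl1-/- replicate 7 was at 12.87.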

How the results depend on the processing

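No member passed the adjusted threshold, with all arrays or under any of the 17 alternatives tested (other scalings, filters, probe averaging, the deposited value table, slide row as a block, 1 array left out), and the count of called list genes also stayed at 0. The members with an unadjusted p under 0.05 by limma numbered 0 (without Psgl1-/- replicate 8) to 3. Csf2rb2 (1.72 to 2.78), Csf2rb (1.27 to 4.03), Kit (0.088 to 3.59), Il34 (-1.24 to -0.28) and Csf3 (-0.98 to -0.48) kept their direction under all of these; the value of 0.088 for Kit comes from the value table, where only its RefSeq probe could be matched, and Il34 could not be tested with the filter at all 8 arrays. Csf1r changed sign after quantile normalization (0.084), scaling to the array median (0.046), cyclic loess (0.22), normexp with an offset of 50 and quantile normalization (0.074) and in the value table (0.087). Csf2 did so after scaling to the array median (0.015) and cyclic loess (0.11). The median of all tested genes was -0.17, -0.17, -0.01, -0.11 and -0.16 under these 5 scalings, in the order given for Csf1r. With 1 array left out, differences ranged from -0.55 to 0.71 for Csf1, from -0.53 to 0.49 for Csf1r and from -0.84 to 0.093 for Csf2ra. Other probes turned the sign for Csf1r (0.33), Csf2ra (0.067), Csf2rb (-0.52) and Kit (-0.11). Over all tested genes 1 was called, against 2 (array median, slide row as a block), 4 (cyclic loess), 6 (mean over probes), 7 (filter at all 8 arrays) and 0 to 10 with 1 array left out; those calls hold no member. The cause of these changes was not tested. No paired analysis was possible because the 2 genotypes share no replicate number.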
